A study of Mus musculus with 8 samples.

Results

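The 10 genes described here, Wif1, Notum, Dkk2, Dkk3, Sfrp1, Apcdd1, Znrf3, Rnf43, Nkd1 and Axin2, encode secreted antagonists and feedback inhibitors of Wnt signalling. They were taken as every probe set of the deposited value table that the platform annotation assigns to exactly 1 of these genes. That gave 25 of the 34945 probe sets with 1 gene, and 10 of the 18193 genes those represent. Wif1, Notum, Rnf43 and Dkk2 had 1 probe set each and the other 6 genes had more than 1. All 25 passed the filter on low values.

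Total RNA of C57BL/6 mice was hybridised to 8 Affymetrix arrays, and each array held 1 pool of RNA from 1 genotype and tissue at 110 days of age. Colon and small intestine came from wild-type mice (WT) and from ACKR2-/- mice, which lack the atypical chemokine receptor also called D6. Colon tumours and small-intestinal tumours came from ApcMin/+ mice and from ACKR2-/-ApcMin/+ mice. ApcMin/+ mice carry 1 mutant copy of the tumour suppressor gene Apc and form intestinal tumours spontaneously. The number of animals in a pool is not given in the sources used here. The non-tumour tissue was from mice without the Min allele, not from beside the tumours, so the comparison of tumour with non-tumour tissue is also one of Apc genotype. In the following, ACKR2KO stands for ACKR2-/- and ACKR2KO_ApcMin for ACKR2-/-ApcMin/+.

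Wnt ligands bind Frizzled receptors with the co-receptors Lrp5 and Lrp6 and keep beta-catenin from being degraded, and beta-catenin with TCF factors then switches on target genes. Apc and Axin proteins are part of the complex that marks beta-catenin for degradation, and in the gut epithelium the pathway keeps the stem cells of the crypt dividing. Several targets of the pathway encode its own inhibitors, and these act at different levels. Some bind or trim the ligand outside the cell, some act on the receptors at the membrane, and some act inside the cell.

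The reference table of RefSeq promoters (mouse build GRCm38) held windows for 5 of the 10 genes: Wif1, Nkd1, Axin2, Dkk2 and Rnf43, the last with 2 windows. The 250 bases before the annotated start are shown for the 4 of them with a single window, 5′ to 3′ on the + strand, as the sequence in which TCF motifs were searched. Capitals mark CTTTG, the core of the TCF motif, on either strand, and lower case is all other sequence. The windows are chr10:121033754-121034003 for Wif1, chr8:88527383-88527632 for Nkd1, chr11:108920099-108920348 for Axin2 and chr3:132085042-132085291 for Dkk2.
Wif1: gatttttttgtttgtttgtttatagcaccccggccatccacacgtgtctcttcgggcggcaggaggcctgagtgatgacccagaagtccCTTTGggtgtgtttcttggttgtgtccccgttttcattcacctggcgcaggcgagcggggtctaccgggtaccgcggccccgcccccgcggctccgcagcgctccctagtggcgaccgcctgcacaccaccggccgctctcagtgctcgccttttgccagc
Nkd1: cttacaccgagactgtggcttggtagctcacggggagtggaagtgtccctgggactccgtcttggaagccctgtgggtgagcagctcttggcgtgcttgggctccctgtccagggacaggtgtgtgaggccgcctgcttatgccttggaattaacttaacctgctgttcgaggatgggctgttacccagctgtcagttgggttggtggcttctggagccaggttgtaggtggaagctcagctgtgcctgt
Axin2: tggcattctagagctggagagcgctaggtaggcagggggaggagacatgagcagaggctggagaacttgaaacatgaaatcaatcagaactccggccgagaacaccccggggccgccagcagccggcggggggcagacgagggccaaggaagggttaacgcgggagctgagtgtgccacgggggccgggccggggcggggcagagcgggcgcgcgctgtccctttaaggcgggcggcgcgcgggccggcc
Dkk2: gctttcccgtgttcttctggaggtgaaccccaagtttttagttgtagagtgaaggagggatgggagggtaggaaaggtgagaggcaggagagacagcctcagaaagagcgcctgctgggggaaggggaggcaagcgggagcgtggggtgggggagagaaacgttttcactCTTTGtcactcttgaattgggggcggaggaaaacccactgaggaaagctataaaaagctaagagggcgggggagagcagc
In the 6 windows, whose search also covered the 50 bases after the start, neither CTTTGAT nor CTTTGAA occurred on either strand. Of all 32851 windows of this length in the table, 8.65% held at least 1 of those 7-base motifs. The 5-base core CTTTG, which both contain, was in 2 of the 6 windows (Wif1 and Dkk2) and in 53.9% of all windows. Windows of this length leave out any more distant element.

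All values are MAS5 signals, a summary of the probes of 1 probe set, scaled by the authors to the same trimmed mean on every array. A floor of 64.1, the middle of the arrays' 40th percentiles, replaced lower signals before log2 was taken, and a fold against a value at the floor is a lower limit ("at least"). Tests came from limma fitted to all 25776 probe sets above the floor in at least 2 arrays. With 1 pool per group, the residual spread came from how far the difference between tumours with and without ACKR2, and between non-tumour tissues with and without ACKR2, varied between the 2 tissues, with 2 residual degrees of freedom. P-values therefore measure the disagreement between tissues, not the spread between animals. A call is an adjusted p (Benjamini-Hochberg over all 25776) below 0.05.

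Facts of the whole set bear on the values below. Xist ranged from 77.9 to 9809 and the Y-linked Eif2s3y from 2.66 to 1501, so the pools differed in the sex of the mice. The WT pools had Eif2s3y at 2.66 and 2.92, below the floor, and the other 6 pools at 888 or more, while the ACKR2KO_ApcMin pools had the lowest Xist. The 4 pools without ACKR2 had lower median signals (85.5 to 103) than the 4 others (115 to 133). They also had higher 3′ to 5′ ratios of the Actb control probe sets (1.28 to 1.39 against 1.13 to 1.17), a measure of RNA quality. The same ratios of the Gapdh control probe sets overlapped (0.740 to 0.866 against 0.772 to 0.952) and did not show this split. Ackr2 itself gave 116 in WT and 153 in ACKR2KO colon, 107 in WT and 71.3 in ACKR2KO small intestine, 107 in ApcMin and 122 in ACKR2KO_ApcMin colon tumours, and 90.7 and 76.4 in the small-intestinal ones. In the colon its signal was thus not lower in the pools labelled ACKR2-/-. The location of its probes relative to the deletion is not given in the sources used here, so these values do not check the genotype, and directions drawn from ACKR2 loss below rest on the labels. Smooth muscle markers were lower in tumours for 10 of 10 genes tested (11.6% of all leading probe sets were lower), fibroblast markers for 3 of 9 and neuronal and glial markers for 5 of 6. Of 8 epithelial markers 1 was higher and 0 were lower. The summed signal of the epithelial markers ran from 116190 to 166610 in non-tumour tissue and from 113770 to 166500 in tumours, and all 8 were above the floor on every array. The part of sex, RNA quality and tissue composition in the differences below was not tested. In such bulk samples, fewer cells of a type and less RNA per cell cannot be told apart.

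Most of these inhibitors were higher in tumours, by amounts that differed widely between genes. Averaged over both tissues, 15 of the 25 probe sets were higher in tumours and 0 lower, where 11% of all probe sets tested were higher and 10.8% lower. By gene, using for each the probe set with the highest mean (the leading probe set), 8 of 10 rose, against 12.8% of leading probe sets. Wif1, Notum, Dkk2, Nkd1, Apcdd1, Axin2, Rnf43 and Znrf3 were the 8 that rose. Dkk3 and Sfrp1 were not called. The median difference of the 25 was 1.41 on the log2 scale, beside 0.02 for all probe sets. These calls need all 8 arrays: leaving out any 1 array left 1 residual degree of freedom, and then no probe set of any gene was called in any comparison, while 15 to 18 of the 25 had an unadjusted p below 0.05 for the averaged effect.

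**Figure D1:**
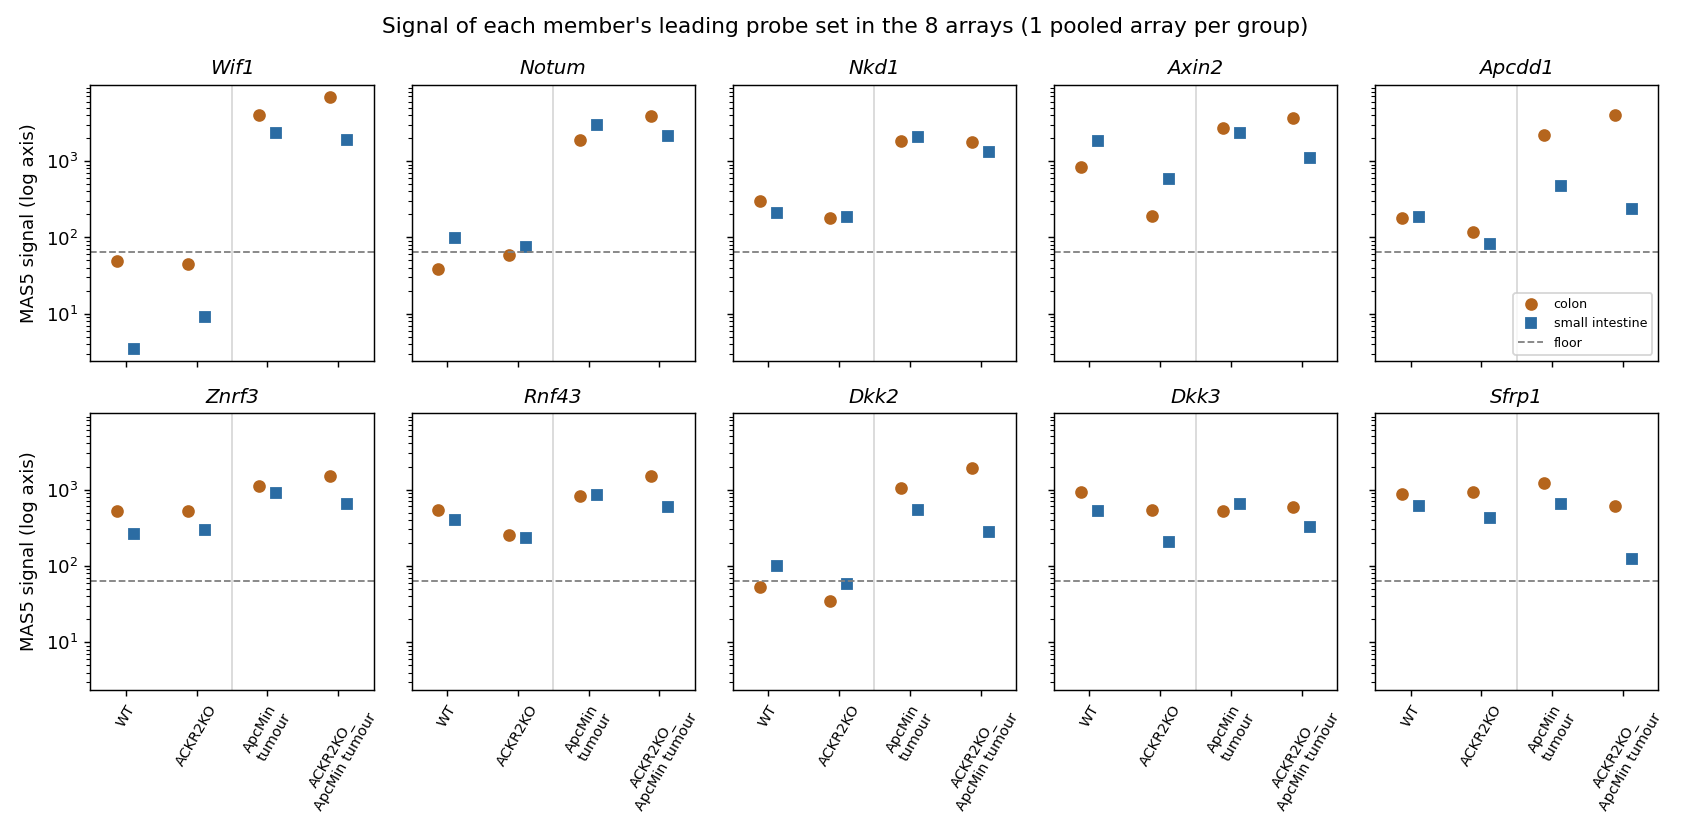
MAS5 signal on a log axis of the leading probe set of each gene in the 8 arrays, 1 pool per point, with colon as circles and small intestine as squares and the floor of 64.1 as a dashed line. All 4 tumour points lie above all 4 non-tumour points for 7 of the 10 genes, and overlap them for Axin2, Dkk3 and Sfrp1.

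Wif1, a secreted protein that binds Wnt ligands directly, was at the floor in every non-tumour pool and above it in every tumour pool. Its signal was 48.5 in WT colon, 44.5 in ACKR2KO colon, 3.52 in WT small intestine and 9.12 in ACKR2KO small intestine, all below the floor. In tumours it was 3968 (ApcMin colon), 6775 (ACKR2KO_ApcMin colon), 2296 (ApcMin small intestine) and 1876 (ACKR2KO_ApcMin small intestine). The groups did not overlap. The rise was at least 61.9-fold (ApcMin against WT) and at least 106-fold (ACKR2KO_ApcMin against ACKR2KO) in colon. In small intestine the same pairs gave at least 35.8-fold and at least 29.3-fold. Averaged over both tissues the log2 difference was at least 5.68 (SE 0.21, adjusted p = 0.000151). Its size depends on the floor, since all 4 non-tumour values were set to that constant and add no spread, and it ran from 4.10 to 7.52 over the planned settings.

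Notum, a secreted enzyme that removes the lipid from Wnt ligands and so inactivates them, showed the same pattern. Its signal was 38.9 in WT colon, 59.4 in ACKR2KO colon, 98.2 in WT small intestine and 74.9 in ACKR2KO small intestine. Tumours gave 1901 (ApcMin colon), 3839 (ACKR2KO_ApcMin colon), 2979 (ApcMin small intestine) and 2105 (ACKR2KO_ApcMin small intestine). Non-tumour colon was below the floor and non-tumour small intestine just above it, far below every tumour. The 4 pairs gave at least 29.6-fold and at least 59.9-fold in colon, and 30.3-fold and 28.1-fold in small intestine. The averaged log2 difference was at least 5.13 (SE 0.26, adjusted p = 0.000389), a lower limit since both non-tumour colon values were at the floor.

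Dkk2 belongs to the Dickkopf family of secreted proteins that bind the co-receptors Lrp5 and Lrp6. Its signal was 53.5 in WT colon, 34.7 in ACKR2KO colon, 101 in WT small intestine and 58.4 in ACKR2KO small intestine. In tumours it was 1039 (ApcMin colon), 1920 (ACKR2KO_ApcMin colon), 542 (ApcMin small intestine) and 279 (ACKR2KO_ApcMin small intestine). Only WT small intestine exceeded the floor outside tumours, and every tumour lay above it. The pairs gave at least 16.2-fold and at least 29.9-fold in colon, against 5.35-fold and at least 4.36-fold in small intestine. The colon difference was called (at least 4.46 log2 units, SE 0.46, adjusted p = 0.00339) and the small-intestinal one was not (at least 2.27, SE 0.46, adjusted p = 0.0601). With no floor or with quantile normalization the small-intestinal difference passed (adjusted p = 0.026 and 0.0488).

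Dkk3, a relative of the Dickkopf proteins without firm binding to the co-receptors, did not follow the others. Its leading probe set gave 931 in WT colon, 542 in ACKR2KO colon, 530 in WT small intestine and 206 in ACKR2KO small intestine. In tumours it gave 517 (ApcMin colon), 592 (ACKR2KO_ApcMin colon), 656 (ApcMin small intestine) and 322 (ACKR2KO_ApcMin small intestine). Tumour and non-tumour values overlapped in both tissues. The tumour values were 0.555, 1.09, 1.24 and 1.56 times the non-tumour ones (ApcMin against WT and then ACKR2KO_ApcMin against ACKR2KO, in colon and then in small intestine). The averaged log2 difference was 0.06 ± 0.23 (SE, adjusted p = 0.883), with its sign turned under quantile normalization (-0.02) and median centring (-0.03). The other Dkk3 probe set also was not called (0.37 ± 0.19, adjusted p = 0.222).

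Sfrp1 encodes a secreted Frizzled-related protein, which resembles the ligand-binding part of the receptor and is made mainly by stromal cells. Its leading probe set gave 874 in WT colon, 916 in ACKR2KO colon, 603 in WT small intestine and 429 in ACKR2KO small intestine. Tumours gave 1203 (ApcMin colon), 602 (ACKR2KO_ApcMin colon), 641 (ApcMin small intestine) and 122 (ACKR2KO_ApcMin small intestine). Values overlapped, and by this probe set the pairs went different ways. ApcMin tumours had 1.38 (colon) and 1.06 (small intestine) times the WT signal, and ACKR2KO_ApcMin tumours 0.657 and 0.285 times the ACKR2KO signal. The other 4 Sfrp1 probe sets did not share the small-intestinal value for ApcMin, at 0.796, 0.729, 0.552 and 0.701 times the WT signal (the last with the tumour at the floor). In colon 3 of those 4 were above WT (1.13, 1.39 and 1.48 times) and 1 below it (0.832 times). None of the 5 Sfrp1 probe sets was called for the averaged tumour effect, with differences from -0.65 to -0.32 and the leading one at -0.47 ± 0.25 (SE, adjusted p = 0.219). Without the ACKR2KO_ApcMin arrays, a setting chosen after seeing the data, the leading difference was 0.27.

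**Figure D2:**
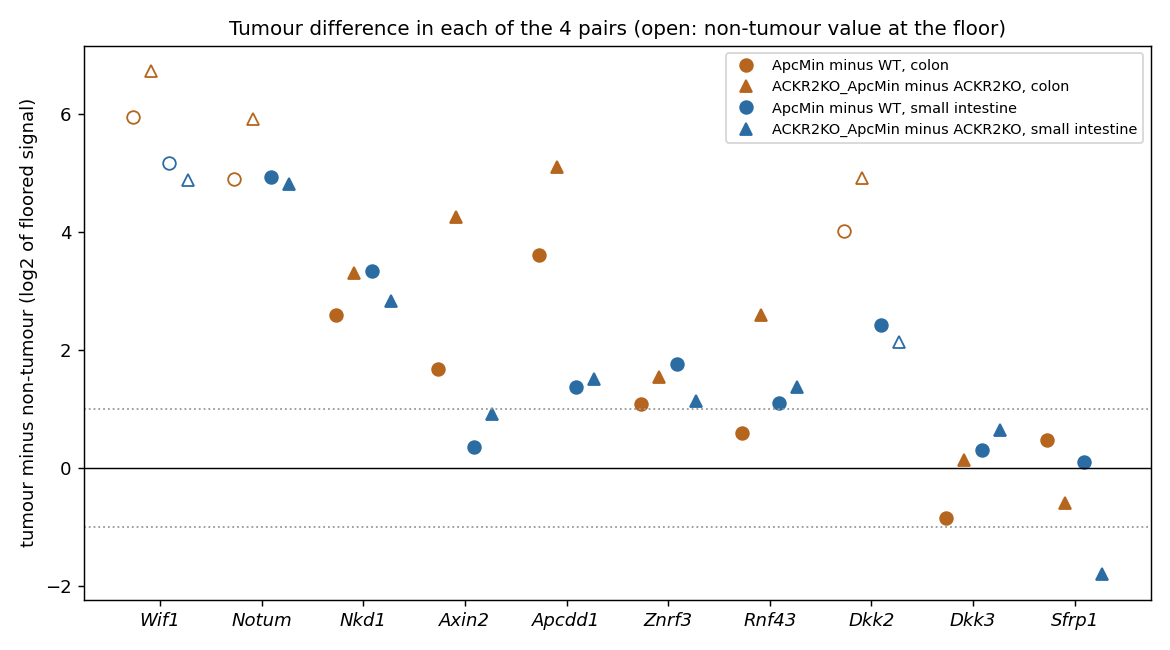
Difference between tumour and non-tumour tissue, in log2 of floored signal, of each gene's leading probe set in the 4 pairs of pools, with open symbols where the non-tumour value was at the floor and dotted lines at 2-fold. Wif1 and Notum lie above 4.8 in every pair, 6 genes pass 2-fold in all 4 pairs, and Dkk3 and Sfrp1 lie on both sides of 0.

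Of the genes acting at the membrane, Apcdd1 showed the widest gap between tissues. It encodes a membrane glycoprotein that binds Wnt ligands and Lrp5. Its leading probe set gave 182 in WT colon, 118 in ACKR2KO colon, 183 in WT small intestine and 82.4 in ACKR2KO small intestine. Tumours gave 2206 (ApcMin colon), 4031 (ACKR2KO_ApcMin colon), 472 (ApcMin small intestine) and 234 (ACKR2KO_ApcMin small intestine). Every tumour value exceeded every non-tumour value, and the colon tumours stood far above the small-intestinal ones. The rise was 12.2-fold and 34.1-fold in colon, and 2.58-fold and 2.84-fold in small intestine. The other 5 Apcdd1 probe sets gave less in small intestine, with 1.41 to 1.93 times the WT signal in ApcMin tumours for 4 of them and 1.44, 1.73 and 2.62 times the ACKR2KO signal in ACKR2KO_ApcMin tumours for 3, and both values at the floor otherwise. The colon difference was 4.35 ± 0.44 log2 units (SE, adjusted p = 0.00332) and the small-intestinal one 1.44 ± 0.44 (adjusted p = 0.157). Apcdd1 had 6 probe sets, and 5 of them rose in colon tumours, by 3.53 to 5.04 log2 units. The other, below the floor on 6 arrays, did not pass (0.65 ± 0.21, adjusted p = 0.0757).

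Znrf3 and Rnf43 are related transmembrane ubiquitin ligases that remove Frizzled receptors from the cell surface, and R-spondins block them. Both rose by less than the secreted antagonists Wif1 and Notum on this scale. Znrf3 gave 522 in WT colon, 525 in ACKR2KO colon, 265 in WT small intestine and 299 in ACKR2KO small intestine. Its tumour signals were 1102 (ApcMin colon), 1516 (ACKR2KO_ApcMin colon), 900 (ApcMin small intestine) and 655 (ACKR2KO_ApcMin small intestine). All tumour values were higher than all non-tumour values, and the pairs gave 2.11-fold, 2.88-fold, 3.40-fold and 2.19-fold (ApcMin against WT and then ACKR2KO_ApcMin against ACKR2KO, in colon and then in small intestine). The difference passed in colon (1.30 ± 0.26, adjusted p = 0.0192) and in small intestine (1.45 ± 0.26, adjusted p = 0.0436). The small-intestinal call was lost with a floor at the 60th percentile, with median centring and without a trend in the variance (adjusted p = 0.0698, 0.0881 and 0.0587). Its other probe set was above the floor on 3 arrays and not called.

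Rnf43 gave 544 in WT colon, 251 in ACKR2KO colon, 399 in WT small intestine and 229 in ACKR2KO small intestine. In tumours it gave 816 (ApcMin colon), 1508 (ACKR2KO_ApcMin colon), 858 (ApcMin small intestine) and 590 (ACKR2KO_ApcMin small intestine). Here too every tumour value exceeded every non-tumour value, with WT colon close to the lowest tumour. The pairs differed in colon, at 1.5-fold for ApcMin against WT and 6.01-fold for ACKR2KO_ApcMin against ACKR2KO. In small intestine they gave 2.15-fold and 2.57-fold. The averaged difference was called (1.41 ± 0.24, adjusted p = 0.012), as was that in colon (1.59 ± 0.34, adjusted p = 0.0246), and the one in small intestine was not (1.23 ± 0.34, adjusted p = 0.127).

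Inside the cell, Nkd1 binds Dishevelled, the protein that passes the signal on from the receptor. Its leading probe set gave 301 in WT colon, 178 in ACKR2KO colon, 207 in WT small intestine and 183 in ACKR2KO small intestine. In tumours it gave 1804 (ApcMin colon), 1754 (ACKR2KO_ApcMin colon), 2074 (ApcMin small intestine) and 1301 (ACKR2KO_ApcMin small intestine). The groups were far apart, and the rise was of similar size in the 2 tissues. The pairs gave 5.98-fold and 9.85-fold in colon, and 10.0-fold and 7.09-fold in small intestine. The log2 differences were 2.94 ± 0.25 (SE, adjusted p = 0.00218) in colon and 3.08 ± 0.25 (adjusted p = 0.00454) in small intestine. All 4 Nkd1 probe sets rose in the average, by 0.98 to 3.01 log2 units.

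Axin2 encodes a scaffold of the complex that degrades beta-catenin and is itself a widely used target gene of the pathway. Its leading probe set gave 840 in WT colon, 191 in ACKR2KO colon, 1810 in WT small intestine and 575 in ACKR2KO small intestine. Tumours gave 2689 (ApcMin colon), 3620 (ACKR2KO_ApcMin colon), 2315 (ApcMin small intestine) and 1081 (ACKR2KO_ApcMin small intestine). The colon tumours exceeded all non-tumour samples, but WT small intestine exceeded the ACKR2KO_ApcMin small-intestinal tumours. The pairs gave 3.20-fold and 18.9-fold in colon, and 1.28-fold and 1.88-fold in small intestine. In colon the difference was 2.96 ± 0.35 log2 units (SE, adjusted p = 0.00477), and in small intestine it was 0.63 ± 0.35 (adjusted p = 0.381). The other Axin2 probe set was not called in either tissue (1.20 ± 0.39, adjusted p = 0.0759, and 0.18 ± 0.39, adjusted p = 0.855). It was higher in tumours in 3 pairs and lower in 1, that of ApcMin against WT in small intestine (239 against 339, 0.705 times).

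Over the 4 pairs, the count of the 10 leading probe sets at 2-fold or more in tumours was 7 for ApcMin against WT in colon, where 6.72% of all leading probe sets reached it. It was 8 for ACKR2KO_ApcMin against ACKR2KO in colon (9.8%), 7 for ApcMin against WT in small intestine (6.02%) and 7 for ACKR2KO_ApcMin against ACKR2KO in small intestine (5.95%). In all 4 pairs Wif1, Notum, Dkk2, Nkd1, Apcdd1 and Znrf3 reached 2-fold, 6 of 10 against 1.14% of leading probe sets. For Apcdd1 this holds for the leading probe set alone, as none of its other 5 reached 2-fold in all 4. The same is true of Znrf3, whose other probe set reached 2-fold in 0 pairs. Of the other Nkd1 probe sets, 1417278_a_at and 1440446_at reached it in all 4 pairs and 1429507_at in 2. The 4 tumours lay above the 4 non-tumour samples for 7 of 10, the same 6 and Rnf43, against 6.8%.

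Outside tumours, few of the probe sets differed between colon and small intestine by the test. Of the 25 probe sets, 1 was higher in colon, where 10.2% of all probe sets were, and 1 was lower, where 6.87% were. The lower one was the leading probe set of Axin2, at -1.35 ± 0.35 log2 units (SE, colon minus small intestine, adjusted p = 0.0447). Its colon value was lower in WT (840 against 1810) and in ACKR2KO (191 against 575). That call did not hold with a floor at the 60th percentile, with median centring, in an additive model or without a trend in the variance (adjusted p = 0.0543, 0.0516, 0.13 and 0.069). The higher one was an Sfrp1 probe set (1460187_at), at 1.53 ± 0.40 (adjusted p = 0.0471), and the leading Sfrp1 probe set had 0.81 ± 0.35 (adjusted p = 0.166). Fibroblast markers moved the same way, with 7 of 9 higher in non-tumour colon and a summed signal of 46322 to 55974 against 16139 to 24880, and their part in the Sfrp1 difference was not tested. Znrf3 (0.90 ± 0.26, adjusted p = 0.0606) and Dkk3 (1.10 ± 0.33, adjusted p = 0.0685) had higher values in colon without passing, and both passed with no floor or among probe sets above the floor on all 8 arrays. The remaining leading probe sets above the floor in both tissues, those of Nkd1, Apcdd1 and Rnf43, differed by 0.25 to 0.29. For Apcdd1 the probe sets did not share a direction. The leading one had a mean log2 level of 7.19 in colon and 6.94 in small intestine, and 1454822_x_at had 6.51 and 7.22. Its probe sets 1437604_x_at and 1418382_at were lower in colon too. Wif1 was at the floor in both, so its base levels have no order.

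By a direct test, the rise was larger in colon for some probe sets of Apcdd1 alone. In colon 14 of 25 probe sets rose (9.04% of all probe sets) and in small intestine 5 (1.9%), those of Wif1, Notum and Znrf3 and 2 of Nkd1. Such counts do not test the difference between tissues, which was fitted directly. By that test 3 of the 25 rose more in colon, against 0.415% of all probe sets, and all 3 were of Apcdd1. They differed between tissues by 4.30 ± 0.54 (1454822_x_at, adjusted p = 0.0265), 3.11 ± 0.46 (1437604_x_at, adjusted p = 0.0397) and 3.25 ± 0.46 (1418383_at, adjusted p = 0.0357). The last was above the floor on 4 arrays only, and values set to the floor add no spread. Of the 10 leading probe sets 0 rose more in colon by the test, where 0.585% of all leading ones did. The leading probe set of Apcdd1 had 2.91 ± 0.63 (adjusted p = 0.0925), and with median centring none of the 25 passed. Axin2 had 2.33 ± 0.49 (adjusted p = 0.0895) and Dkk2 2.19 ± 0.65 (adjusted p = 0.17), neither past the threshold. Among only the probe sets above the floor on all 8 arrays, the leading probe sets of Axin2 and Apcdd1 passed (adjusted p = 0.0318 and 0.0307). For Nkd1 the 2 tissues differed by -0.14 ± 0.35, for Znrf3 by -0.14 ± 0.36, for Rnf43 by 0.35 ± 0.49 and for Notum by 0.53 ± 0.52, each within its error or close to it. Their signs turned under some settings. Wif1 had 1.32 ± 0.41 (adjusted p = 0.187), which became -1.49 with no floor, as its non-tumour signal below the floor was lower in small intestine than in colon.

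**Figure D3:**
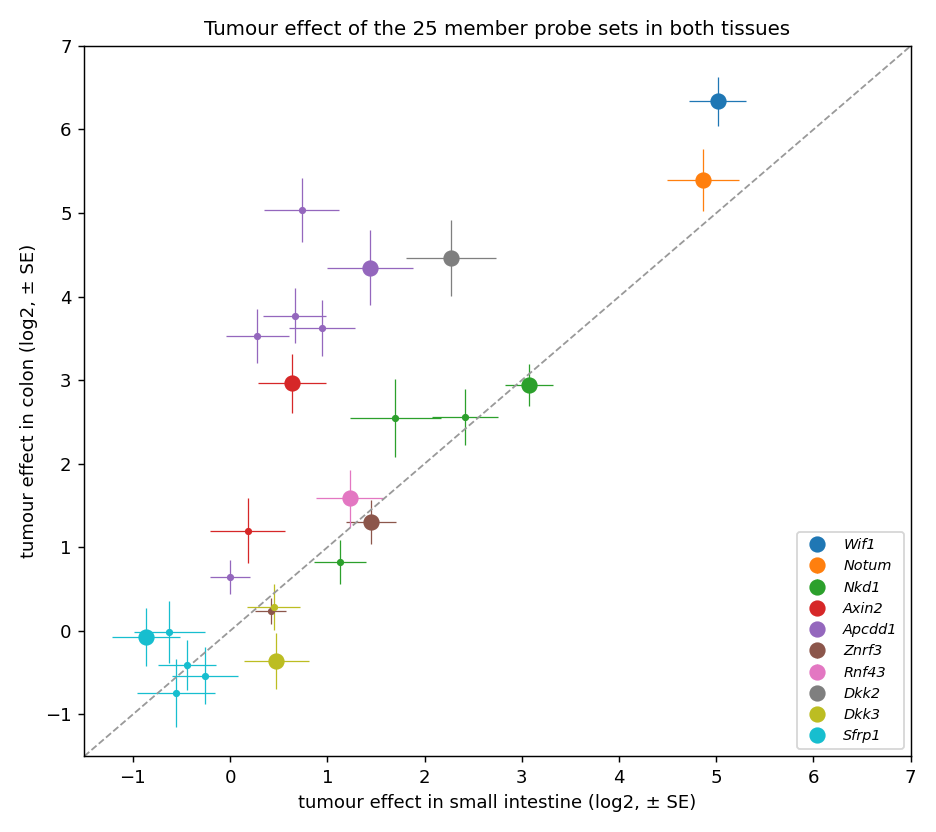
Tumour effect in colon against that in small intestine, in log2 units with SE bars, for the 25 probe sets, with large points for leading probe sets and a dashed line where both are equal. 5 of the 6 Apcdd1 points lie far above the line, the leading points of Nkd1, Notum and Znrf3 lie near it, and Sfrp1 and Dkk3 lie between -0.86 and 0.48 in both tissues.

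Loss of ACKR2 was compared separately in tumours and in non-tumour tissue. The comparison in non-tumour tissue, and that of its ACKR2 effect with the one in tumours, were added after the data were seen. In tumours 0 of the 25 probe sets were called by limma, 6 had an unadjusted p below 0.05, and 0.0388% of all probe sets were called. The model fits 1 ACKR2 effect for both tissues, so opposite differences cancel in it. Leading probe sets of Wif1, Notum, Apcdd1, Dkk2, Rnf43, Axin2, Znrf3 and Dkk3 were higher in colon tumours without ACKR2 and lower in small-intestinal ones. The log2 differences were 0.87 and -1.01 for Apcdd1, and 1.01 and -0.50 for Notum. Each compares 1 pool with 1 other, and how common this pattern was among all leading probe sets was not tested. Other probe sets of Dkk3 (1448669_at) and Apcdd1 (1454822_x_at, 1418382_at and 1418383_at) shared it. Those of Axin2 (1421341_at, -0.13) and Znrf3 (1437646_at, -0.47) were lower in colon tumours too. Apcdd1 1443639_at was lower in colon tumours (-0.70) and at the floor in small-intestinal ones. Apcdd1 1437604_x_at was higher in both kinds of tumour. Sfrp1 was lower in both. The leading probe set of Nkd1 was lower in small-intestinal tumours (-0.67) and nearly equal in colon tumours (-0.04). In colon tumours its other probe sets went both ways (1417278_a_at -0.11, 1440446_at 0.27 and 1429507_at 0.08). The largest fitted effect was that of the leading Sfrp1 probe set, at -1.70 ± 0.35 log2 units (SE, adjusted p = 0.129). Its signal was lower in ACKR2KO_ApcMin than in ApcMin tumours of the colon (602 against 1203) and of the small intestine (122 against 641). The other 4 Sfrp1 probe sets had -1.66, -1.65, -1.25 and -0.70. Restricted to probe sets above the floor on all 8 arrays, the leading one passed (adjusted p = 0.0385).

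Stromal markers moved in the same tumours. The summed fibroblast signal was 40357 and 23824 in ApcMin and ACKR2KO_ApcMin colon tumours, and 20703 and 7534 in the small-intestinal ones. Smooth muscle markers summed to 36200 and 9834 in colon tumours and to 27172 and 12569 in small-intestinal tumours, and endothelial markers to 2214 and 1214, and to 2110 and 954. All 9 fibroblast markers, 8 of 10 smooth muscle markers and 6 of 7 endothelial markers were above the floor on every array. The 3 sums were thus lower without ACKR2 in both kinds of tumour, as Sfrp1 was, and their part in the Sfrp1 difference was not tested. In non-tumour small intestine every Sfrp1 probe set was lower without ACKR2 too, the leading one at 429 against 603. In non-tumour colon the leading one had 916 against 874, and the others went both ways. The fibroblast sum outside tumours was 16139 against 24880 in small intestine and 46322 against 55974 in colon. That of smooth muscle was 69977 against 65271 and 116330 against 137520. Dkk3 had 592 against 517 in colon tumours and 322 against 656 in small-intestinal tumours.

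**Figure D4:**
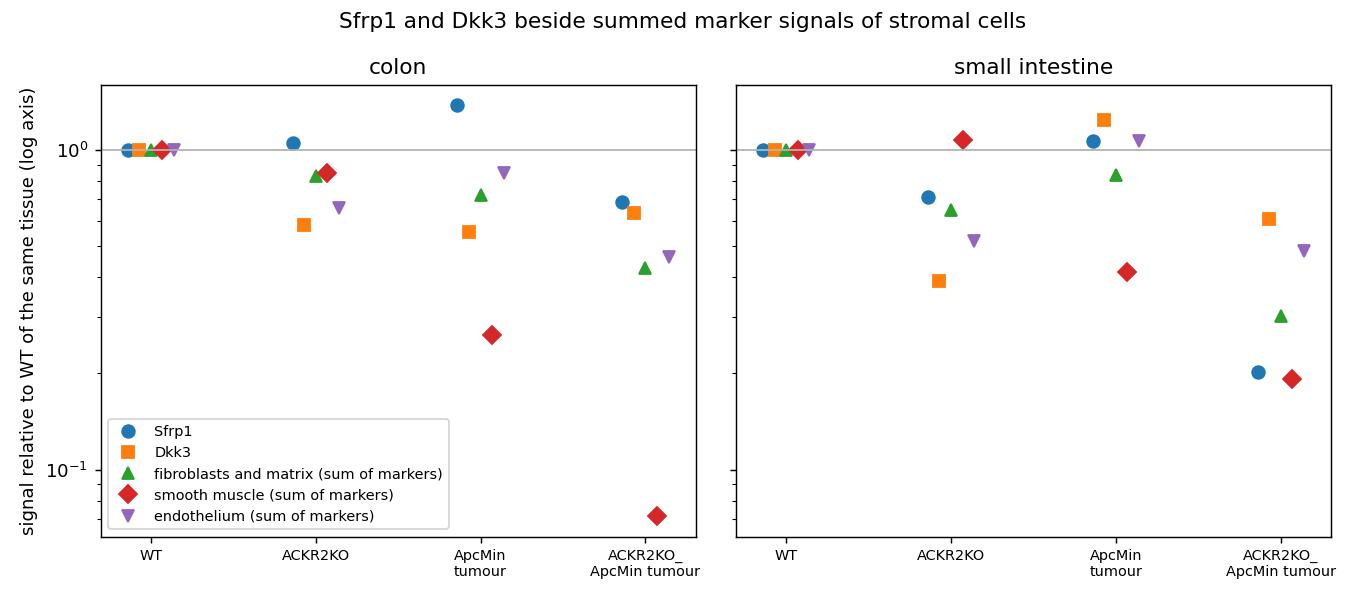
Signal of Sfrp1 and Dkk3 (leading probe sets) and summed signals of fibroblast, smooth muscle and endothelial markers, each relative to WT of the same tissue, on a log axis, 1 pool per point. In ACKR2KO_ApcMin tumours Sfrp1 and all 3 sums are below WT and below ApcMin tumours of the same tissue.

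In non-tumour tissue, the median difference of the 25 probe sets without ACKR2 was -0.47 log2 units, beside -0.09 for all probe sets. By the test 2 of the 25 were lower, where 6.62% of all probe sets were, and 0 were higher (1.71%). That count is near the share of all probe sets and comes from 1 gene. These were the 2 probe sets of Axin2. The leading one differed by -1.89 ± 0.35 log2 units (SE, adjusted p = 0.0312), from 840 to 191 in colon and from 1810 to 575 in small intestine. The other differed by -1.78 ± 0.39 (adjusted p = 0.0442), from 143 to 37.7 and from 339 to 56.9. With 1 probe set per gene the leading call was lost (adjusted p = 0.0604). Median centring raised the median difference of all probe sets in this comparison to 0.35, and then 86.7% of the called probe sets were higher instead of 20.5%, while the leading Axin2 probe set kept its direction (-1.35, adjusted p = 0.0443). In tumours the same probe set had -0.34 ± 0.35 (adjusted p = 0.67). The change from one to the other was not called (1.56 ± 0.49, adjusted p = 0.422), nor was that of any of the 25 (0.00388% of all probe sets), of which 3 had an unadjusted p below 0.05. The lower Axin2 base in ACKR2KO tissue is the denominator of the 18.9-fold colon pair, which rested on 191 in ACKR2KO colon against 840 in WT colon. Likewise Rnf43 had 251 in ACKR2KO and 544 in WT colon, the denominators of its 6.01-fold and 1.5-fold pairs. Other genes were lower in the same pools. Of the 13 beta-catenin target genes, Ephb3 was called lower (-1.09 ± 0.23, adjusted p = 0.0419) and 10 of 13 had negative differences. The collagen genes Col1a1 (-2.23 ± 0.22, adjusted p = 0.0133) and Col1a2 (-0.95 ± 0.22, adjusted p = 0.0485) were called lower among 9 fibroblast markers. The 9 did not share a direction, with 7 negative and 2 positive differences. The positive ones were Lum (0.79 ± 0.20, adjusted p = 0.0583) and Dcn (0.16 ± 0.21, adjusted p = 0.671). All 7 endothelial markers had negative differences (median -0.87) and 0 were called, and their summed signal was 1732 against 2623 in colon and 1028 against 1982 in small intestine. Sex, median signal and the Actb ratio differed between these same pools too, and the part of any of these was not tested.

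Target genes of the pathway rose in the same tumours as 8 of the 10 inhibitors described here. Among 13 tested target genes of beta-catenin, 11 rose in the averaged tumour effect and 0 fell, with a median of 1.32 log2 units. By tissue, 10 of the 13 were called higher in colon and 6 in small intestine. The largest averaged effects were those of Mmp7, a matrix protease (3.66 ± 0.14, adjusted p = 0.000151), and the transcription factors Prox1 (3.60 ± 0.33, adjusted p = 0.00214), Sp5 (2.49 ± 0.24, adjusted p = 0.00245) and Lef1 (2.36 ± 0.21, adjusted p = 0.00184). Mmp7 is also a Paneth cell product. It had 7.47 ± 0.20 in colon (adjusted p = 7.29e-05) and -0.16 ± 0.20 in small intestine (adjusted p = 0.721), and 5 of 6 Paneth cell markers, with Mmp7 among them, rose in colon tumours. The median of the 10 inhibitors was 2.34.

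None of the other inhibitors of the pathway passed the test as higher. Of 8 other secreted or membrane antagonists tested, 0 rose and 1 fell, the Frizzled-related gene Sfrp2 (-0.86 ± 0.22, adjusted p = 0.0385), and the median was -0.14. The average joins unlike tissues, as Sfrp2 had -1.71 ± 0.31 in colon (adjusted p = 0.0154) and was at the floor in small intestine. The median of the 8 was -0.46 in colon, with 2 called lower, and 0.21 in small intestine, with 7 of 8 positive and 0 called. Dkk1, Dkk4 and Sost were below the filter. Of 10 other intracellular inhibitors 0 rose and 4 fell, with a median of -0.19. By tissue, 3 of the 10 were called lower in colon (median -0.41) and 0 in small intestine (median -0.23). Nkd2, the relative of Nkd1, fell by 1.88 on the log2 scale (SE 0.23, adjusted p = 0.00496). Tcf7l1, a TCF factor that represses target genes, had -1.15 ± 0.18 (adjusted p = 0.00855), and the Dishevelled-binding Dact3 and Dact1 had -1.05 ± 0.16 (adjusted p = 0.00847) and -0.98 ± 0.27 (adjusted p = 0.0444). Tcf7l1, Dact3 and Dact1 had -1.86, -1.57 and -1.32 in colon, where Dact1 was not called (adjusted p = 0.054). In small intestine they had -0.45, -0.53 and -0.65. Within a family, the members thus moved apart, with Nkd1 higher and Nkd2 lower. Smooth muscle and neuronal markers were lower in the same tumours, and their part in the lower values was not tested.

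Of 12 Wnt ligand genes tested, counting the secretion factors Porcn and Wls, 3 rose and 4 fell, with a median of 0.07. Wnt10a had 1.66 ± 0.17 (adjusted p = 0.00321), Wnt6 1.13 ± 0.22 (adjusted p = 0.0163) and Wnt5a 0.97 ± 0.18 (adjusted p = 0.0145), while Wnt4 had -0.86 ± 0.23 (adjusted p = 0.0409). In colon 3 ligand genes rose and 3 fell, and in small intestine 0 were called. Wnt10a had at least 3.14 (SE 0.25) in colon (adjusted p = 0.00177) and 0.17 ± 0.25 in small intestine (adjusted p = 0.764), and Wnt6 and Wnt5a were called in colon (1.80 and 1.43, adjusted p = 0.0125 and 0.0136) and not in small intestine (0.46 and 0.50, adjusted p = 0.473 and 0.344). The difference between tissues itself passed for Wnt10a (adjusted p = 0.0232) and not for Wnt6 (0.201) or Wnt5a (0.259). Among 15 receptors and co-receptors 1 rose and 5 fell, with a median of -0.18. Fzd10 had 1.09 ± 0.18 (adjusted p = 0.0103), and Ror1 (-1.62 ± 0.20, adjusted p = 0.00509) and Fzd2 (-1.10 ± 0.18, adjusted p = 0.0103) were among the lower ones. Of 6 R-spondin and LGR genes 2 rose and 1 fell. The stem cell receptor Lgr5 had 2.42 ± 0.19 (adjusted p = 0.00132) and Lgr6 1.5 ± 0.36 (adjusted p = 0.0319), and the ligand gene Rspo3 had -1.82 ± 0.24 (adjusted p = 0.00571). All 3 were called in colon, with 3.57 for Lgr5, 2.61 for Lgr6 and -2.09 for Rspo3. In small intestine they had 1.27, 0.39 and -1.56 and were not called (adjusted p = 0.0641, 0.74 and 0.0735). The lists of ligands, receptors and R-spondins each held called genes in both directions, where the 10 inhibitors had 8 higher and 0 lower. The 10 genes and these lists were chosen with earlier results of these data known. The contrast between them is therefore a description and not independent support.

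**Figure D5:**
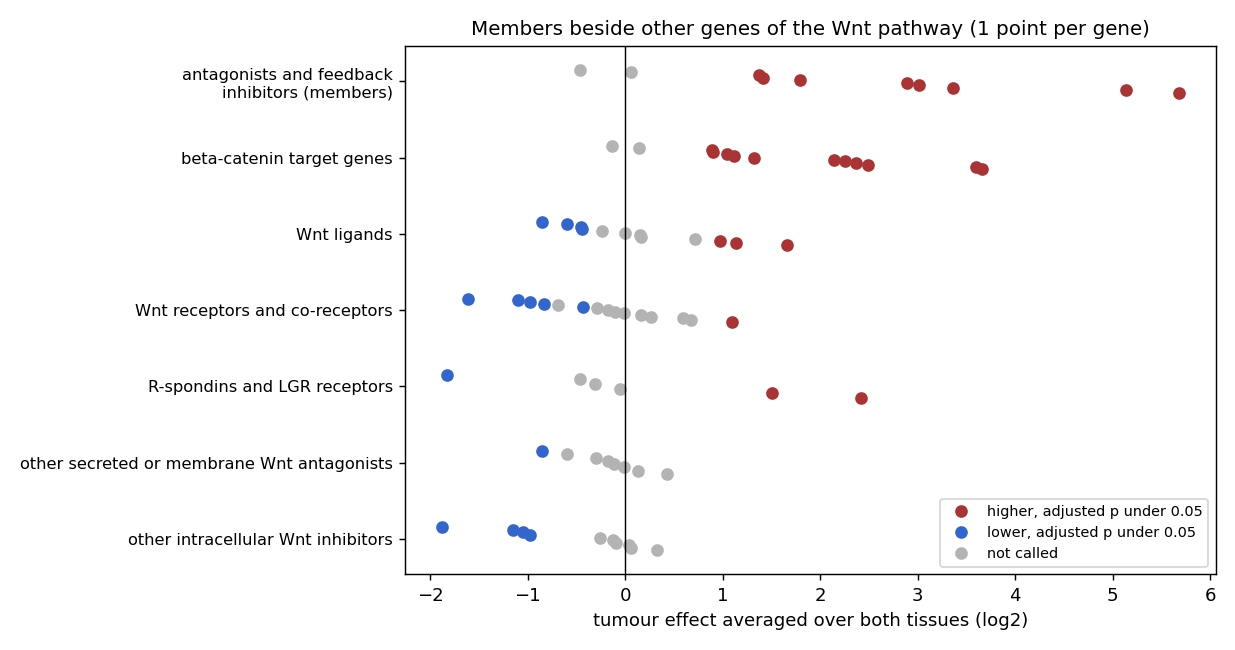
Tumour effect averaged over both tissues, in log2 units, with 1 point per gene (leading probe set) for the 10 inhibitors and for 6 lists of other Wnt pathway genes, coloured by call. The inhibitors reach 5.68 and the target genes 3.66, and the other lists spread around 0.

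The genes whose pattern over the 8 arrays was most like that of a member were found by the root mean square difference of centred log2 values, with the floor applied, among 14026 other genes. For Wif1 the nearest gene was Notum (0.54), followed by the transcription factor gene Onecut2 (0.71) and the amino acid transporter gene Slc38a4 (0.78). Nearest to Notum were Onecut2 (0.39), Slc38a4 (0.39) and Wif1 (0.54). Onecut2 had signals from 7.86 to 71.7 in non-tumour tissue and from 1159 to 3188 in tumours, and Slc38a4 from 1.31 to 17.2 and from 1424 to 2509. These 4 genes thus had signals at or near the floor outside tumours and tumour signals more than 10 times the floor.

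For Axin2 the nearest were Psrc1 (0.56), the chemokine gene Cxcl1 (0.57) and the matrix protease gene Mmp9 (0.57), at about the distance that separates Wif1 from Notum. Dkk3 had closer neighbours, Esyt1 (0.16), Zmynd8 (0.18) and Tk2 (0.19). Sfrp1 was nearest to the growth factor gene Bmp5 (0.18), to Myh10 (0.26), a non-muscle myosin, and to Cd93 (0.29), which is expressed by endothelial cells. Bmp5 had 943 in ApcMin and 615 in ACKR2KO_ApcMin colon tumours, and 615 and 136 in the small-intestinal ones, beside 1203 and 602, and 641 and 122, for Sfrp1.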

How the data were processed

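The 8 arrays (1 pool per group, 4 tumour and 4 non-tumour) were analysed from the deposited value table, whose intensity values are MAS5 signals made by the authors. The submitters' processing notes name MAS5 and Partek without versions, and every array had a trimmed mean of 500. How many animals were pooled, and any other step, is not given in the sources used here. The platform annotation gave 1 gene for 34945 of 45101 probe sets, several for 932 and none for 9160, and 64 are controls. Of those with 1 gene, 34741 matched the RefSeq gene table by Entrez identifier, and 0 symbols changed.

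Signals were set to a floor of 64.1 (the median of the arrays' 40th percentiles), taken to log2 and filtered to the 25776 probe sets with 2 or more arrays over the floor. A limma model (version 3.58.1, R 4.3.3, trend in the variance) had 6 coefficients: a level for each tissue in tumour and non-tumour samples, and 1 ACKR2 effect in tumours and 1 in non-tumour tissue. It left 2 residual degrees of freedom, with a prior of 4.49 and a median SD of 0.23 on the log2 scale. The script was tested on simulated data. With 1 array per group, the number of arrays limits the precision, and there was no replicate of any pool. The tumour effect in a tissue is the mean of its 2 pairs, and the averaged effect the mean of both tissues. No result in the small intestine is independent of the colon, since they share the ACKR2 terms.

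The 10 genes, the 6 Wnt lists and the 8 marker lists were chosen with earlier results of these data known, so none is independent support. Named genes beside the 10 were up to 4 called genes per list with the largest averaged effect, and the 3 nearest patterns of Wif1, Notum, Axin2, Dkk3 and Sfrp1. Bmp5, Onecut2 and Slc38a4 values were given after they were seen. The comparisons of non-tumour tissue with and without ACKR2, and of the ACKR2 effect between tumours and non-tumour tissue, use the same model. Both were added after the data were seen. Alternatives changed the floor, filter, normalization, probe sets per gene, model, variance trend and arrays. Promoter windows came from the RefSeq table (build GRCm38), and Notum, Apcdd1, Znrf3, Dkk3 and Sfrp1 had none.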

Additional observations from a re-analysis of the deposited data

Results flagged for a closer look

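The tumour effect of Apcdd1 differed between tissues by a direct test. Colon minus small intestine was 4.30 (1454822_x_at), 3.11 (1437604_x_at) and 3.25 (1418383_at) on the log2 scale for the 3 probe sets that passed in limma (adjusted p = 0.0265, 0.0397 and 0.0357). The leading probe set did not pass (2.91, adjusted p = 0.0925), and no Apcdd1 probe set passed with median centring, with 1 probe set per gene, with no filter, or with any 1 array left out.

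For Sfrp1 (1428136_at) the pairs with and without ACKR2 went opposite ways at its leading probe set: ApcMin tumours were above WT in both tissues and ACKR2KO_ApcMin tumours below ACKR2KO in both, a difference of 1.48 log2 units between the kinds of pair. The limma test of that difference did not pass (adjusted p = 0.434). In small intestine the other 4 Sfrp1 probe sets had ApcMin tumours below WT (0.552 to 0.796 times), and in colon 1 of the 4 did (0.832 times). Outliers within a group could not be looked for with 1 array per group.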

How the results depend on the processing

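Each pool is 1 array, so nothing here measures the spread between animals, and signals at the floor bound a fold from one side only. Counts are of the 25 probe sets called by limma. Leaving out each of the 8 arrays in turn, which left 1 residual degree of freedom, gave 0 called in every comparison (lowest and highest 0), as did leaving out both WT arrays or both ACKR2KO_ApcMin arrays, chosen after seeing the data. With no filter 0 were called in each comparison, where 15 (averaged tumour effect), 14 (colon), 5 (small intestine), 3 (colon minus small intestine), 2 (base level) and 2 (ACKR2 in non-tumour tissue) had been, and 180 of all probe sets were called for the averaged effect. The averaged and colon tumour counts stayed within 1.5 times of 15 and 14 under the other settings, except for 9 in colon among probe sets above the floor on all 8 arrays, and 8 and 8 with 1 probe set per gene. In small intestine 3 were called with a floor at the 60th percentile, above the floor on all 8 arrays, and with median centring. Colon minus small intestine had 5 above the floor on all 8 arrays, and 0 with median centring or 1 probe set per gene. Base level had 5 with no floor, 4 above the floor on all 8 arrays, 1 with quantile normalization, 1 probe set per gene or no trend, and 0 with the 60th percentile floor, median centring or the additive model. ACKR2 loss in tumours had 1 with no floor, 2 above the floor on all 8 arrays and 2 in the additive model. In non-tumour tissue it had 1 with the 60th percentile floor, quantile normalization or no trend, and 0 with 1 probe set per gene. The 2-fold counts of single pairs became 6 (ACKR2KO_ApcMin against ACKR2KO, small intestine) with the 60th percentile floor. With 1 probe set per gene they were 7 (ApcMin against WT, colon), 8 (ACKR2KO_ApcMin against ACKR2KO, colon) and 7 (the same, small intestine).

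Signs turned only for small or uncalled differences. Wif1, colon minus small intestine, was -1.49 with no floor. Dkk3 averaged -0.018 with quantile normalization and -0.028 with median centring, and colon minus small intestine was 0.077 for Nkd1 and 0.069 for Znrf3 with median centring. Without both WT arrays Nkd1 had 0.16. Without both ACKR2KO_ApcMin arrays Dkk3 averaged -0.27, Sfrp1 had 0.27 (averaged), 0.32 (colon) and 0.23 (small intestine), and colon minus small intestine was -0.23 for Notum and -0.36 for Rnf43. Leaving out 1 array gave ranges across 0 for Dkk3 (-0.25 to 0.36 averaged, -0.97 to 0.25 in colon, -0.14 to 1.09 in small intestine), Sfrp1 in colon (-0.77 to 0.63) and Axin2 in small intestine (-0.13 to 1.40). For colon minus small intestine they were -0.45 to 0.18 (Nkd1), -0.60 to 0.31 (Znrf3), -0.23 to 1.29 (Notum) and -0.36 to 1.07 (Rnf43). Median centring moved the median of all probe sets to -0.12 (tumour effect in small intestine), 0.12 (colon minus small intestine) and 0.16 (ACKR2 in tumours). It moved the share of higher among all called probe sets from 50.3% to 39.5% (averaged), 68.5% to 57.8% (small intestine), 32.3% to 52.6% (colon minus small intestine) and 59.8% to 49.2% (base level). The shares in small intestine were 57.5% with quantile normalization and 80.0% in the additive model, and those of ACKR2 loss in non-tumour tissue 33% with quantile normalization and 9.99% with no trend. The causes were not tested. No paired analysis was possible because each group has 1 pool, numbered 1 in accession order, so any 2 groups share a single number that pairs no samples. The tumour and non-tumour pairs are comparisons of 1 pool with 1 other pool.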
